A study of Mus musculus with 48 samples.

Results

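The lysosome genes described here are 29 mouse genes chosen by name: 10 proteases and their relatives, 8 glycosidases, 4 genes of lipid handling, 6 genes of membrane proteins and the transcription factor gene Tfeb. They are named by function, with no measured value in the rule. They were found among the 55487 genes of the count tables by Ensembl identifier, and all 29 passed the filter on low counts and were tested in each of the 21 comparisons.

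RNA was sequenced from 4 kinds of myeloid cells sorted from wild type mice: medullary sinus macrophages (MSM), subcapsular sinus macrophages (SSM), migratory dendritic cells (mDC) and resident dendritic cells (rDC). Each came from a lymph node (LN) or a tumor-draining lymph node (TDLN) of mice given phosphate-buffered saline (PBS) or cisplatin, a platinum drug that crosslinks DNA. This gave 16 groups of 3 libraries, 48 in all. The dose, the time of harvest, the tumor, the age of the mice, the gates of the sort and whether the 3 libraries of a group came from different mice are not given in the sources used here, so the p-values measure the spread between these libraries, which may be technical.

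Lysosomes are acidic compartments in which proteases, glycosidases and lipases break down material taken up from outside or delivered by autophagy. Cathepsins are the main lysosomal proteases, and in macrophages and dendritic cells they also cut antigens and the invariant chain before peptides are shown on MHC class II. TFEB, the protein made from Tfeb, is a transcription factor that binds E-box motifs in the promoters of many lysosomal genes, and its activity is set largely by where in the cell it resides, so its mRNA is only part of its regulation.

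Promoter windows of RefSeq on GRCm38.p6, from 250 bases before to 50 bases after a start site, were found for 25 of the 29 genes. A gene can have several windows (32851 windows for 27025 genes) and counted where any of them held the motif. Some of the start sites, as for Ctsa and Lgmn, lie inside the annotated gene. The E-box CACGTG, searched on both strands (it reads the same on each), occurred in the windows of 10 genes, or 40.0% of those with a window, against 8.09% of all genes with a window. The longer form TCACGTGA, which contains the E-box and also reads the same on both strands, occurred in 4 genes (Ctsa, Ctsd, Gla and Mcoln1), or 16.0%, against 1.12% of all genes. The other 6 genes with the E-box were Ctsl, Lgmn, Gaa, Glb1, Naglu and Lamp1. A match describes letters and is no evidence of binding. The windows of Ctsd and Lamp1 are shown whole because these genes are followed through each comparison, and Lamp1 holds 4 copies. The stretch around the first motif is shown for the other 3 genes with the longer form and for 3 more genes named in the results. All are written 5′ to 3′ on the strand of the gene, with the motif in capitals; the first capital of the Mcoln1 stretch is the last base of its other copy.
Ctsd, chr7:142387778-142388077, - strand: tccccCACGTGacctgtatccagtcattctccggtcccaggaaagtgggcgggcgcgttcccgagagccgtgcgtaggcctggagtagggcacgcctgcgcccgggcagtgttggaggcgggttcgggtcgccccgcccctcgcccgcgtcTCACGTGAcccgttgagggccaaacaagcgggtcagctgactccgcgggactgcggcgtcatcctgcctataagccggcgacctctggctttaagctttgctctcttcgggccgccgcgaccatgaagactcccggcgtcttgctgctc
Lamp1, chr8:13158911-13159210, + strand: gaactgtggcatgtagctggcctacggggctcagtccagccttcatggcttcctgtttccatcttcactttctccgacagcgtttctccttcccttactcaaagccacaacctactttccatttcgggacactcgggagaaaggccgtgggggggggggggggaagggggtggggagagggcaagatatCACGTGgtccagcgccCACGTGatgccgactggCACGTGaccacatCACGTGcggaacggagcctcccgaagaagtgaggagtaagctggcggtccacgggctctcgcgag
Ctsa, chr2:164833740-164833787, + strand: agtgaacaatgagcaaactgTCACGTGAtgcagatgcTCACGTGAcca
Gla, chrX:134601206-134601253, - strand: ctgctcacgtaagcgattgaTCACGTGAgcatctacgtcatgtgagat
Mcoln1, chr8:3500453-3500500, + strand: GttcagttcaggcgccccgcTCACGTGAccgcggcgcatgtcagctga
Naglu, chr11:101070001-101070046, + strand: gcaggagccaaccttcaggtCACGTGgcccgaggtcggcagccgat
Gaa, chr11:119267803-119267848, + strand: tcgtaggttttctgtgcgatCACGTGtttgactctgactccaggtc
Ctsl, chr13:64370731-64370770, - strand: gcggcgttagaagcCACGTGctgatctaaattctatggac

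Levels are given in CPM, the counts of a gene per M (mega) counts of the library, scaled by edgeR's trimmed mean of M values within the 12 libraries of a cell type, so they are read across conditions of 1 cell type and not between genes, whose lengths differ. A gene is said to rise, fall or differ where the quasi-likelihood test of edgeR gave a p under 0.05 after Benjamini-Hochberg adjustment over all genes tested. The macrophage libraries held 6.46 to 10.43 M counts. Of the dendritic cell libraries, 18 held 2.00 to 3.84 M and 6 held 10.73 to 15.48 M, and these 6 are the mDC from TDLN with PBS and the rDC from LN with PBS, so depth and group cannot be told apart there. In 4 macrophage libraries the whole profile went against the label: replicate 2 of MSM and of SSM from LN with PBS, replicate 1 of MSM and replicate 3 of SSM from TDLN with cisplatin. Over 8001 genes they correlated with the libraries of the other macrophage label of their condition at up to 0.99 and with their own at no more than 0.751. They are called the crossed libraries, and the counts of the 29 genes called in macrophages are given with all libraries and then without these 4. They were picked by profile, and their groups hold fewer than 3 libraries without them.

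Markers were checked against the labels. The summed CPM of 14 macrophage markers was 1774 to 1869 in the 3 MSM libraries from LN with cisplatin and 8354 to 25085 in the other macrophage libraries, and 1 of the 14, Vsig4, was at 0 in all of them. In the LN cisplatin MSM libraries Siglec1, Mertk and Fcgr1 averaged at most 0.1 CPM, while B cell markers summed to 4919 to 5108, dendritic cell markers to 4180 to 4407 and mast cell markers to 1624 to 1682. This group is therefore called the libraries labelled MSM. Neutrophil markers reached 11241 to 11624 in MSM from TDLN with PBS. Dendritic cell markers summed to 21732 to 27007 in mDC and to 2454 to 3156 in rDC. The dendritic cell list includes Ccr7, Fscn1 and Cacnb3, and sums are scaled within each cell type. These sums therefore do not compare the share of dendritic cells between mDC and rDC. The rDC libraries also held 2152 to 4474 of B cell and 2274 to 4802 of plasmacytoid dendritic cell markers. In sorted cells in bulk, a smaller share of cells of a type and less RNA per cell cannot be told apart.

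The summed level of the 29 genes moved most in macrophages. Among MSM groups it was lowest in the libraries labelled MSM from LN with cisplatin, 6394 ± 103 CPM (SD, n = 3), and highest in TDLN with PBS, 15298 ± 151 CPM. Among SSM groups it was highest in LN with cisplatin, 20136 ± 312 CPM, and lowest in TDLN with cisplatin, 11375 ± 3106 CPM. That order rests on the crossed library, at 7794 CPM: the other two of the group, at 13014 and 13318 CPM, lay above SSM from TDLN with PBS, at 12092 ± 291 CPM. In mDC the group means lay between 9096 and 11495 CPM, and in rDC between 10748 and 16405 CPM. The lipid handling class of rDC, which includes Psap, had group means from 3160 to 6400 CPM.

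**Figure D1:**
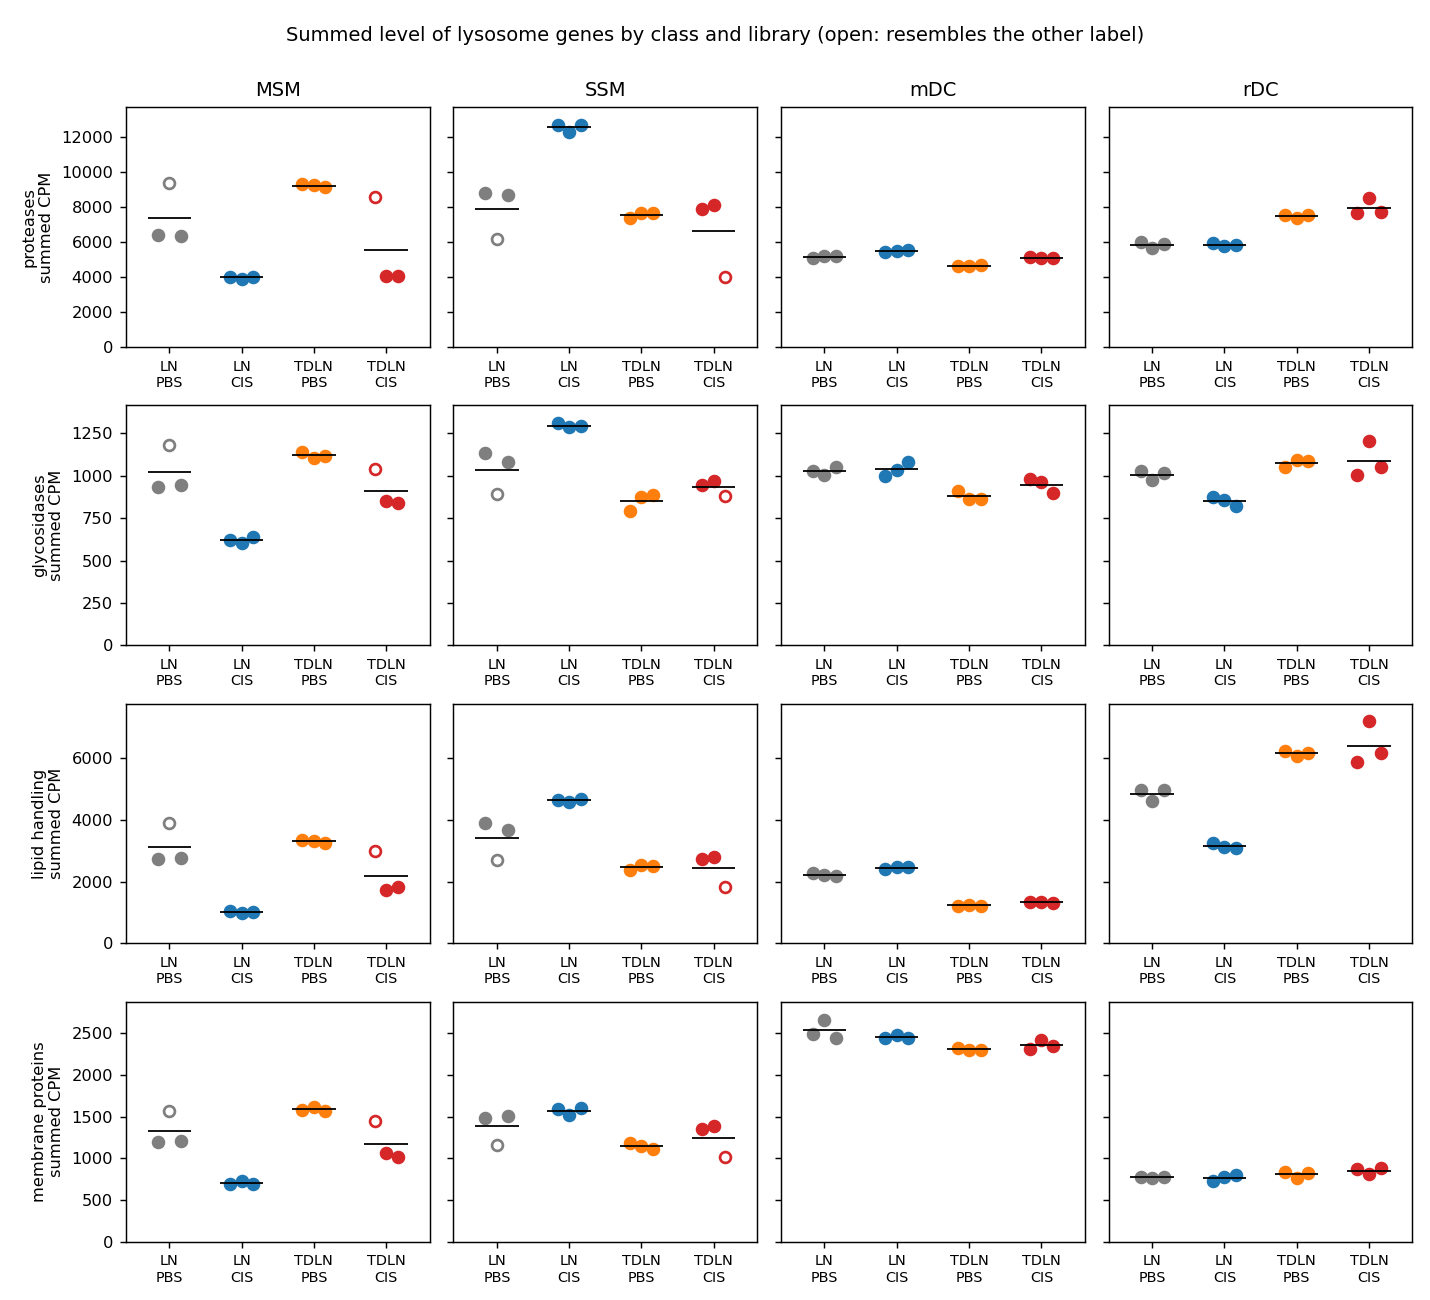
Summed CPM of 4 classes of lysosome genes (rows) in each library, by cell type (columns) and condition, with the group mean as a line; open circles are the crossed libraries and CIS is cisplatin. The SSM libraries from LN with cisplatin are the highest of the SSM column for proteases (12305 to 12689 CPM), the libraries labelled MSM of that condition are the lowest of the MSM column (3904 to 4021 CPM), and each open circle lies apart from the filled ones of its group in the protease row.

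In the libraries labelled MSM from LN, some genes of each class of enzyme fell with cisplatin. Asah1, the acid ceramidase gene, was at 217, 251 and 215 CPM with PBS and at 36.5, 38.4 and 40.8 CPM with cisplatin. Psap, which encodes the precursor of the saposins that help enzymes reach lipids, was at 2215, 3276 and 2279 CPM with PBS and at 744, 674 and 715 CPM with cisplatin. No library of either treatment reached the range of the other for these genes. Asah1 fell by 2.56 ± 0.26 (log2, SE; adjusted p = 4.93e-05) and Psap fell by 1.87 ± 0.23 (adjusted p = 0.000189).

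Ctsd, the aspartic protease cathepsin D, was at 1540, 1222 and 1588 CPM with PBS and at 457, 451 and 459 CPM with cisplatin in these LN libraries, and fell by 1.67 ± 0.14 (adjusted p = 1.9e-05). Its levels with cisplatin were the lowest of the 12 MSM libraries. Cd63, a tetraspanin of late endosomes and lysosomes, fell by 1.87 ± 0.22 (adjusted p = 0.000136), and Lamp1, a main glycoprotein of the lysosomal membrane, fell by 0.87 ± 0.18 (adjusted p = 0.00324). Ctsb, a cysteine protease, fell by 1.49 ± 0.52 (adjusted p = 0.0402), with PBS levels of 1238, 3341 and 1291 CPM of which the highest is the crossed library. Mcoln1, a cation channel of the lysosomal membrane, alone rose, by 0.40 ± 0.12 (adjusted p = 0.019), from 70.5, 73.7 and 72.7 CPM to 95.6, 95.5 and 94.9 CPM. Tfeb averaged 71.6 CPM with cisplatin and 82.8 CPM with PBS and did not pass the test (adjusted p = 0.555).

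In all, 14 of the 29 genes fell and 1 rose here, against 26.8% and 16.6% of all 17002 genes tested, and their median log2 fold change was -0.59 against -0.15 over all genes. By class, 3 of 10 proteases, 6 of 8 glycosidases, 2 of 4 lipid genes and 3 of 6 membrane genes fell. The proteases were thus near the share of all genes that fell, 26.8%. Without the crossed libraries 21 fell and 6 rose, against 40.7% and 33.4% of genes, and Ctsb, at -0.86 ± 0.05, changed less. Tfeb then turned from -0.21 to 0.24 (adjusted p = 0.0372). The macrophage markers moved with this result, from 13898 to 17075 CPM with PBS to the 1774 to 1869 CPM given above. Neutrophil markers were at 6331, 200 and 6111 CPM with PBS, the low one being the crossed library, and at 14.0 to 16.8 CPM with cisplatin. B cell markers summed to 517 to 4140 CPM and dendritic cell markers to 482 to 1486 CPM with PBS. Mast cell markers summed to 684 to 1009 CPM with PBS. These sums lay below the values with cisplatin given above. Plasmacytoid dendritic cell markers summed to 75.5 and 82.6 CPM in the uncrossed PBS libraries, 1010 CPM in the crossed one and 1018 to 1071 CPM with cisplatin. T cell markers summed to 2016 and 2050 CPM, 831 CPM, and 2177 to 2225 CPM in the same order. The part of these markers in the result was not tested.

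In MSM from TDLN, cisplatin went with lower Ctsd again. It was at 2906, 2884 and 2801 CPM with PBS, the highest of all MSM libraries, and at 915, 1177 and 1174 CPM with cisplatin, with no overlap, and fell by 1.40 ± 0.14 (adjusted p = 6.26e-05). Gaa, the acid glucosidase that degrades glycogen, fell by 1.17 ± 0.16 (adjusted p = 0.000421) and Tpp1, a tripeptidyl peptidase, by 0.95 ± 0.21 (adjusted p = 0.00549). Psap fell by 0.68 ± 0.23 (adjusted p = 0.0381), Gusb, a glucuronidase, by 0.65 ± 0.16 (adjusted p = 0.00974) and Lamp1 by 0.51 ± 0.18 (adjusted p = 0.0428). Naglu, which removes N-acetylglucosamine from heparan sulfate, rose by 0.81 ± 0.14 (adjusted p = 0.00157), from 39.2, 39.6 and 42.1 CPM to 82.6, 62.9 and 65.9 CPM.

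In the TDLN 9 genes fell and 1 rose, against 11.5% and 25.6% of all genes, with a median of -0.40 against 0.19 over all genes. With the crossed libraries left out, 23 fell and 2 rose, against 27.4% and 41.6%. Ctsb was at 2754, 2799 and 2709 CPM with PBS and at 2962 CPM in the crossed cisplatin library but 789 and 816 CPM in the other two, and without the crossed libraries it fell by 1.78. Macrophage markers summed to 23956 to 24273 CPM with PBS and to 8414 to 15243 CPM with cisplatin, and neutrophil markers to 11241 to 11624 and 892 to 8009 CPM. Dendritic cell markers summed to 321 to 350 CPM with PBS and to 1652 to 1763 CPM with cisplatin. B cell markers summed to 471 to 499 and 707 to 5272 CPM, the highest being the crossed library. Mast cell markers summed to 273 to 291 and 1544 to 3033 CPM, and T cell markers to 2744 to 2825 and 653 to 2220 CPM. Plasmacytoid dendritic cell markers summed to 72.0 to 84.4 and 97.1 to 1145 CPM. The part of these markers was not tested.

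**Figure D2:**
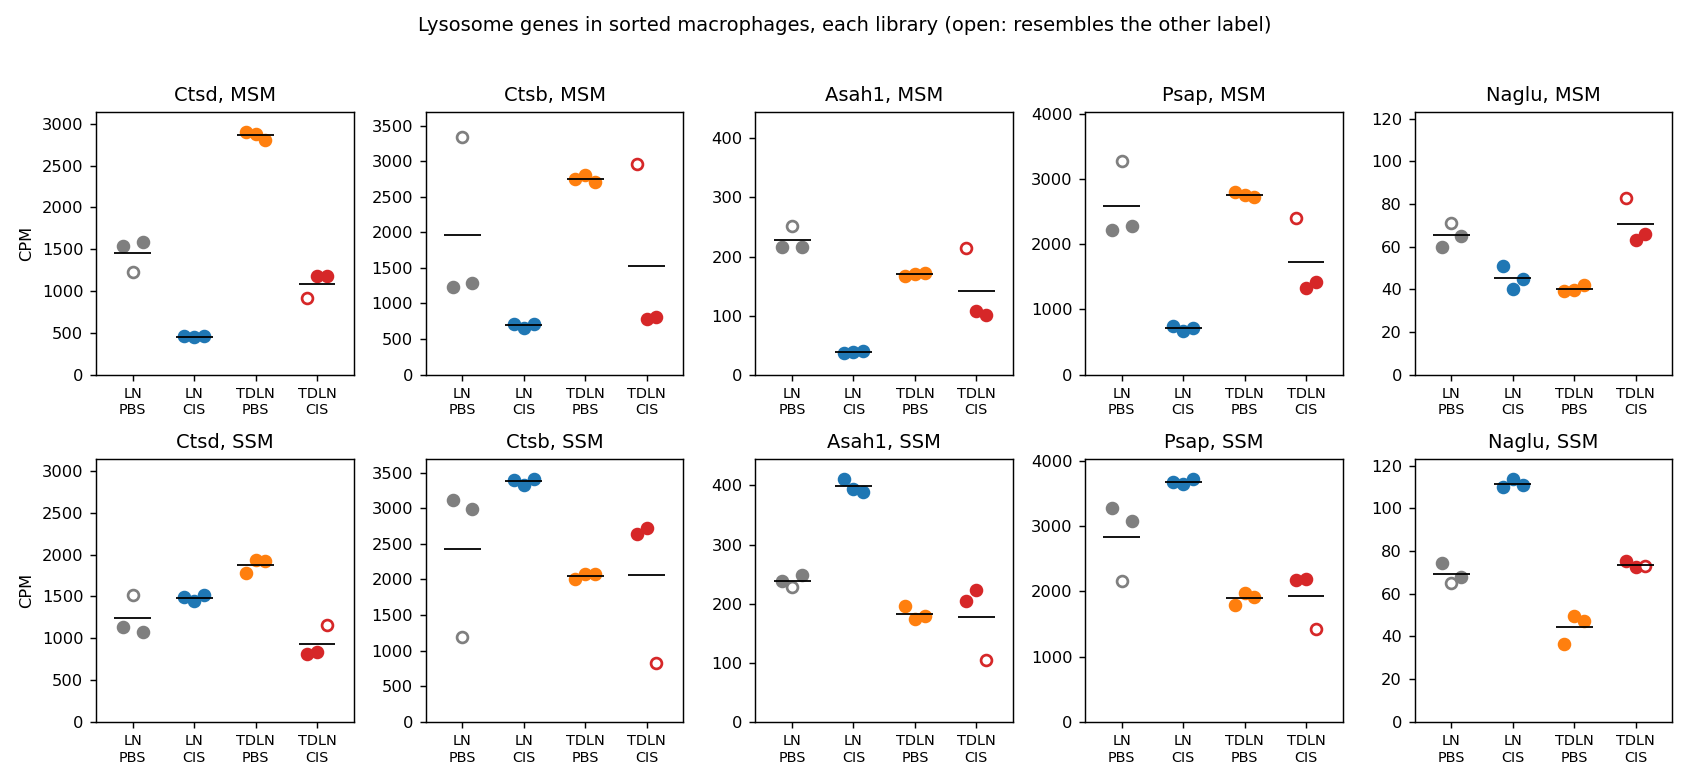
CPM of Ctsd, Ctsb, Asah1, Psap and Naglu in each MSM (top) and SSM (bottom) library, with group means as lines and the crossed libraries as open circles. Ctsd lies at 2801 to 2906 CPM in MSM from TDLN with PBS and at 451 to 459 CPM in the libraries labelled MSM from LN with cisplatin, and Ctsb in the open circles lies among values of the other macrophage label.

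With PBS, MSM from TDLN held more Ctsd than MSM from LN, by 0.98 ± 0.14 (adjusted p = 0.000489), more Tpp1 (0.63 ± 0.21, adjusted p = 0.0345) and more Mcoln1 (0.49 ± 0.12, adjusted p = 0.00845), and less Naglu (-0.70 ± 0.14, adjusted p = 0.00339). Lamp1 averaged 663 CPM in TDLN and 535 CPM in LN and did not pass (adjusted p = 0.186). These 3 higher and 1 lower genes compare with 11.6% and 26.6% of all genes, and with the crossed libraries left out 14 were higher and 9 lower, against 29% and 40.7%. This comparison shares its PBS libraries with those of cisplatin, so the values are given side by side only. Macrophage markers summed to 13898 to 17075 CPM in LN and to 23956 to 24273 CPM in TDLN, and neutrophil markers to 200 to 6331 and 11241 to 11624 CPM. Dendritic cell markers summed to 482 to 1486 and 321 to 350 CPM, and B cell markers to 517 to 4140 and 471 to 499 CPM. Mast cell markers summed to 684 to 1009 and 273 to 291 CPM, and T cell markers to 831 to 2050 and 2744 to 2825 CPM. What part these markers had was not tested.

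The cisplatin effect differed between TDLN and LN in MSM for 8 genes by the interaction term. It was higher in TDLN for 6 genes, against 31.1% of all genes, and lower for 2, against 9.64%. The median over the 29 genes was 0.32 and over all genes 0.58, a median that moved by -0.13 with RLE factors and by -0.15 with DESeq2. The largest were Asah1 (2.29 ± 0.35, adjusted p = 0.000534), Cd63 (1.43 ± 0.31, adjusted p = 0.00395) and Naglu (1.33 ± 0.20, adjusted p = 0.000453), and Mcoln1 (-0.92 ± 0.16, adjusted p = 0.00145) and Npc1, a cholesterol transporter (-0.94 ± 0.33, adjusted p = 0.0431), in the other direction. Without the crossed libraries 9 were higher and 12 lower, against 43% and 22.1%.

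In SSM from LN, cisplatin went with higher levels of several degradative genes. Ctsa, a carboxypeptidase that also protects galactosidase and neuraminidase, was at 660, 571 and 639 CPM with PBS and at 1189, 1177 and 1230 CPM with cisplatin. Gusb was at 150, 116 and 151 CPM and then at 265, 272 and 267 CPM. Ctss, a cysteine protease that cuts the invariant chain, was at 973, 871 and 1048 CPM and then at 1986, 1874 and 1931 CPM. In each of these 3 genes all cisplatin libraries lay above all PBS libraries. Ctsa rose by 0.94 ± 0.17 (adjusted p = 0.00685), Gusb by 0.95 ± 0.13 (adjusted p = 0.00266) and Ctss by 1.00 ± 0.29 (adjusted p = 0.0434). Npc2, which carries cholesterol inside the lysosome, rose by 0.70 ± 0.18 (adjusted p = 0.0295) and Naglu by 0.69 ± 0.12 (adjusted p = 0.00696).

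In all, 7 genes rose and 0 fell in SSM from LN, against 5.85% and 7.42% of all 16886 genes, with a median of 0.51 against -0.04. Ctsd averaged 1484 CPM with cisplatin and 1240 CPM with PBS (0.26 ± 0.17, adjusted p = 0.35), and Lamp1 averaged 562 and 576 CPM (adjusted p = 0.923). Without the crossed libraries 23 rose and 4 fell, against 30.1% and 29.9%, and Ctsd (0.45 ± 0.05), Asah1 (0.74) and Ctsc (1.01), which activates granzymes and other serine proteases, then passed. Leaving out 1 library at a time gave 3 to 8 genes. Shares of all genes in those fits are not given, so this range shows dependence on single libraries only. Macrophage markers summed to 13576 to 15957 CPM with PBS and to 24720 to 25085 CPM with cisplatin, and B cell markers to 518 to 3907 and 443 to 454 CPM. Dendritic cell markers summed to 485 to 1443 and 849 to 881 CPM, and neutrophil markers to 131 to 6069 and 110 to 114 CPM. Mast cell markers summed to 638 to 976 and 76.1 to 79.2 CPM. T cell markers summed to 781 and 721 CPM in the uncrossed PBS libraries, 1938 CPM in the crossed one and 1463 to 1482 CPM with cisplatin. Plasmacytoid dendritic cell markers summed to 905 and 898 CPM, 90.0 CPM, and 186 to 201 CPM in the same order. The part of these markers was not tested. Of 17 genes tested of the proton pump that acidifies lysosomes, 7 rose and none fell, among them Tcirg1 (0.99, adjusted p = 0.00109) and Atp6ap1 (0.74, adjusted p = 0.00719). With the crossed libraries left out 12 rose and 0 fell, with Tcirg1 at 1.13 and Atp6ap1 at 0.93.

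In SSM from TDLN, Ctsd fell with cisplatin, as it did in MSM. It was at 1779, 1930 and 1927 CPM with PBS and at 806, 836 and 1161 CPM with cisplatin, the last being the crossed library, and fell by 1.01 ± 0.17 (adjusted p = 0.00363). Lipa, the acid lipase of cholesteryl esters and triglycerides, fell by 0.70 ± 0.15 (adjusted p = 0.0087) and Scarb2, a membrane receptor that carries glucocerebrosidase to lysosomes, by 0.54 ± 0.12 (adjusted p = 0.00984). Naglu rose by 0.73 ± 0.12 (adjusted p = 0.00355), from 36.5, 49.4 and 47.3 CPM to 75.2, 72.6 and 73.1 CPM, and Ctsh, an aminopeptidase of the cathepsin family, by 0.44 ± 0.13 (adjusted p = 0.0302).

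These 2 risers and 3 fallers compare with 13% and 9.95% of all genes. When the crossed libraries were left out, 16 rose and 6 fell, against 34.6% and 36.5%. Ctsl, a cysteine protease that cuts the invariant chain in thymic epithelium, was at 49.6, 47.5 and 45.9 CPM with PBS and at 162, 155 and 28.7 CPM with cisplatin. The low value is the crossed library, and without it Ctsl rose by 1.75. Macrophage markers summed to 12639 to 13081 CPM with PBS and to 8354 to 14154 CPM with cisplatin, and neutrophil markers to 147 to 182 and 796 to 7887 CPM. Dendritic cell markers summed to 538 to 569 CPM with PBS and to 1453 to 1712 CPM with cisplatin. Mast cell markers summed to 167 to 173 and 1545 to 2900 CPM, and T cell markers to 2336 to 2485 and 595 to 2137 CPM. Plasmacytoid dendritic cell markers summed to 209 to 216 and 103 to 1062 CPM. B cell markers summed to 1265 to 1325 CPM with PBS, and to 4852 and 4929 CPM in the uncrossed and 782 CPM in the crossed cisplatin library. What part these markers had was not tested.

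With PBS, SSM from TDLN held more Ctsd than SSM from LN (0.60 ± 0.17, adjusted p = 0.0333) and less Naglu (-0.64 ± 0.12, adjusted p = 0.00718) and Ctsh (-0.40 ± 0.13, adjusted p = 0.0471). The 1 higher and 2 lower genes compare with 7.63% and 12% of all genes, and 6 and 17 without the crossed libraries with 34% and 33.8%. B cell markers summed to 3907 and 3791 CPM in the uncrossed LN libraries, 518 CPM in the crossed one and 1265 to 1325 CPM in TDLN. Dendritic cell markers summed to 1443 and 1397 CPM, 485 CPM, and 538 to 569 CPM in the same order. T cell markers summed to 781 and 721 CPM, 1938 CPM, and 2336 to 2485 CPM. Mast cell markers summed to 958 and 976 CPM, 638 CPM, and 167 to 173 CPM. Plasmacytoid dendritic cell markers summed to 905 and 898 CPM, 90.0 CPM, and 209 to 216 CPM. Macrophage markers summed to 15957 and 15737 CPM, 13576 CPM, and 12639 to 13081 CPM. Their part was not tested. The cisplatin effect was lower in TDLN than in LN for 5 genes and higher for none, against 8.21% and 13.4% of all genes, with a median of -0.57 against 0.12. Among them were Ctsd (-1.27 ± 0.24, adjusted p = 0.00571), Ctsa (-1.25 ± 0.24, adjusted p = 0.00524) and Lipa (-1.24 ± 0.20, adjusted p = 0.00278). Without the crossed libraries 16 were lower and 6 higher, against 32.2% and 33.6%.

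MSM and SSM were compared within each condition, on a scale set over all 24 macrophage libraries. In LN with cisplatin the libraries labelled MSM were lower than SSM in 22 genes and higher in none, against 29% and 20.7% of all 19671 genes, and without the crossed libraries in 26 and 1, against 39.3% and 33.1%. Asah1 averaged 37.9 and 406 CPM (-3.42 ± 0.27, adjusted p = 8.22e-09), Psap 698 and 3760 CPM (-2.43 ± 0.23, adjusted p = 8.85e-08) and Lamp2, a membrane protein needed for autophagy, 79.0 and 352 CPM (-2.15 ± 0.22, adjusted p = 3.1e-07). Ctsb (-2.34 ± 0.53, adjusted p = 0.0014) and Ctsc (-2.34 ± 0.42, adjusted p = 0.000191) were lower by a like amount, Ctsd by less (-1.76 ± 0.15, adjusted p = 2.03e-08), and Lamp1 by -0.99 ± 0.17 (adjusted p = 0.000138). With RLE factors the median of all genes in this comparison moved by 0.12. The macrophage marker sums, 1774 to 1869 and 24720 to 25085 CPM, differ between these groups in the same way, and B cell marker sums, 4919 to 5108 and 443 to 454 CPM, in the other. Their part was not tested.

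In TDLN with PBS the direction was the other way. MSM were higher than SSM in 8 genes and lower in none, against 14.4% and 26.4% of all genes, and without the crossed libraries in 14 and 7, against 28.1% and 39%. Npc1 averaged 27.8 and 9.91 CPM (1.49 ± 0.29, adjusted p = 0.000545), Gaa 220 and 123 CPM (0.84 ± 0.16, adjusted p = 0.000497), Cd63 513 and 302 CPM (0.76 ± 0.21, adjusted p = 0.00676) and Mcoln1 101 and 60.5 CPM (0.74 ± 0.12, adjusted p = 7.54e-05), and Glb1, a galactosidase, was higher by 0.67 ± 0.21 (adjusted p = 0.0166). Ctsd was higher by 0.58 ± 0.14 (adjusted p = 0.00346) and Lamp1 by 0.44 ± 0.17 (adjusted p = 0.0471). In MSM and SSM of this condition, neutrophil markers summed to 11241 to 11624 and 147 to 182 CPM, macrophage markers to 23956 to 24273 and 12639 to 13081 CPM, and B cell markers to 471 to 499 and 1265 to 1325 CPM, each scaled within its cell type. Their part was not tested. In both conditions that hold crossed libraries, LN with PBS and TDLN with cisplatin, edgeR called 0 genes of all, 0% in each direction, and 0 of the 29, with 0 of the 29 by DESeq2 and 0 at an unadjusted p under 0.05. Without the crossed libraries 6 were higher and 19 lower in LN with PBS, against 28.7% and 33.3% of genes, and 7 and 20 in TDLN with cisplatin, against 33.7% and 29.6%. Ctsd was then higher in MSM in each, by 0.40 and 0.45, and Lamp1 lower, by 0.52 and 0.46. The libraries left out were those whose profile resembled the other label, so more differences between MSM and SSM follow from that choice. These fits, with fewer than 3 libraries a group, are therefore no test of whether the labels differ.

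**Figure D3:**
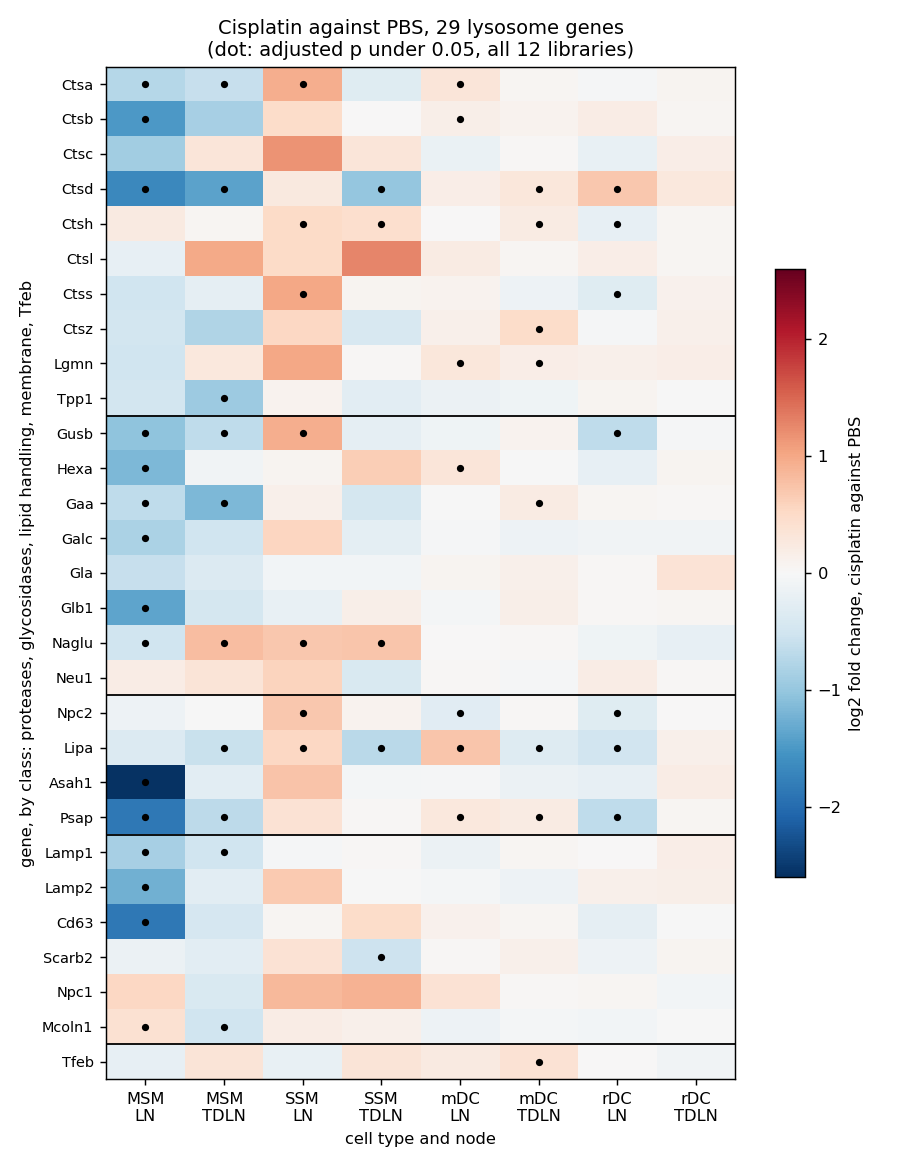
Log2 fold change of cisplatin against PBS (colour) for the 29 genes, grouped by class, in 4 cell types from LN and TDLN, with all libraries; a dot marks adjusted p under 0.05. The column of the libraries labelled MSM from LN is blue down to -2.56 (Asah1), that of SSM from LN is red for 7 dotted genes, and the columns of dendritic cells stay between -0.67 and 0.72 where dotted.

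In mDC, the changes were smaller, and between nodes with PBS the largest of those named were in Psap and Npc2. From LN to TDLN with PBS, Psap went from 1524, 1423 and 1454 CPM to 680, 713 and 679 CPM, and was lower by 1.09 ± 0.05 (adjusted p = 5.97e-14). Npc2 went from 595, 582 and 561 CPM to 388, 371 and 381 CPM, and was lower by 0.61 ± 0.05 (adjusted p = 2.9e-09). No TDLN library overlapped an LN library in these genes. Ctsz, a carboxypeptidase of the cathepsin family (-0.46 ± 0.06, adjusted p = 4.28e-06), and Gla, a galactosidase (-0.46 ± 0.12, adjusted p = 0.00431), were lower too, while Ctsd did not pass (-0.16 ± 0.06, adjusted p = 0.068).

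In all, 11 genes were lower and 0 higher, against 14.3% and 14.8% of all 12519 genes. Here 1 group is the deep one, and small changes in dendritic cells rest on the scaling: fitted with no filter on low counts, the median of all genes moved by 0.35 in this comparison, by -0.28 for cisplatin in TDLN, by -0.32 for the node difference in mDC, and in rDC by -0.30 for cisplatin in LN, -0.26 for TDLN against LN and 0.25 for the node difference. Gusb (-0.34), Lamp1 (-0.19) and Tfeb (-0.29) were lower with the filter but turned positive under that scaling, and Psap and Npc2 did not. Between the cisplatin groups, where no library is deep, TDLN was lower than LN in 9 genes and higher in 1, against 7.21% and 7.57% of all genes, with Psap at -1.15 ± 0.05 (adjusted p = 1.19e-13) and Npc2 at -0.29 ± 0.05 (adjusted p = 0.000228). That comparison was chosen after seeing the data. With PBS, macrophage markers summed to 687 to 708 CPM in LN and 575 to 585 CPM in TDLN. With cisplatin they summed to 1013 to 1066 and 672 to 738 CPM. B cell markers summed to 177 to 186 and 281 to 299 CPM with PBS, and to 344 to 387 and 453 to 481 CPM with cisplatin. T cell markers summed to 145 to 166 and 118 to 127 CPM with PBS, and to 186 to 203 and 102 to 125 CPM with cisplatin. Their part was not tested.

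In mDC, Lipa was higher with cisplatin in LN and lower in TDLN, where PBS is the deep group. In LN it rose from 33.7, 43.8 and 40.3 CPM to 63.2, 59.7 and 70.4 CPM, by 0.72 ± 0.12 (adjusted p = 0.000273). In TDLN it fell from 32.1, 34.4 and 32.6 CPM to 24.3, 23.7 and 30.4 CPM, by 0.34 ± 0.12 (adjusted p = 0.0375). Neither pair of groups overlapped in CPM, and the node difference was -1.06 ± 0.17 (adjusted p = 0.000163). In the deposited TPM (transcripts per M), the LN libraries were at 15.96 to 25.45 with PBS and at 32.49 to 38.11 with cisplatin. The TDLN libraries were at 18.83 to 20.25 with PBS and at 13.12 to 26.4 with cisplatin. The TDLN groups thus overlapped in TPM, with means of 19.6 and 18.5.

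In LN, 6 genes rose and 1 fell, against 6.15% and 4.82% of all genes. Beside Lipa these were Ctsa (0.31 ± 0.07), Hexa, a hexosaminidase subunit (0.31 ± 0.07), Lgmn, the asparagine endopeptidase (0.30 ± 0.07), Psap (0.28 ± 0.05) and Ctsb (0.16), while Npc2 fell by 0.30 ± 0.05 (adjusted p = 0.00019). Other hydrolases also rose, 5 of 27 with none lower, led by Gm2a, the cofactor that presents a ganglioside to hexosaminidase (1.31, adjusted p = 8.96e-12), and Ppt1, a thioesterase (0.77, adjusted p = 3.39e-07). Macrophage markers moved with these, from 687 to 708 CPM with PBS to 1013 to 1066 CPM with cisplatin. So did B cell markers, 177 to 186 and 344 to 387 CPM, and neutrophil markers, 2.14 to 2.71 and 21.6 to 29.6 CPM. The part of these markers was not tested. In TDLN, 7 genes rose and 1 fell, against 14.1% and 13.2%. Ctsz rose by 0.47 ± 0.06 (adjusted p = 3.13e-06), Tfeb by 0.37 ± 0.09 (adjusted p = 0.00401) and Ctsd by 0.28 ± 0.06 (adjusted p = 0.0012). Psap (0.22 ± 0.05) and Gaa (0.21 ± 0.06) turned negative with no filter. Macrophage markers in TDLN summed to 575 to 585 CPM with PBS and to 672 to 738 CPM with cisplatin. B cell markers there summed to 281 to 299 and 453 to 481 CPM, and mast cell markers to 32.7 to 36.4 and 42.9 to 58.6 CPM. Their part was not tested. The node difference passed for 3 genes higher and 2 lower, against 8.43% and 7.17%: Ctsz (0.34), Npc2 (0.32), Ctsh (0.21), Lipa and Hexa (-0.33), of which Npc2 and Ctsh changed sign with no filter.

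In rDC, several proteases were higher in TDLN than in LN. With PBS, Ctsl went from 292, 272 and 295 CPM to 565, 542 and 554 CPM, higher by 0.95 ± 0.07 (adjusted p = 6.4e-08). Ctsb went from 1526, 1363 and 1496 CPM to 2442, 2285 and 2435 CPM, higher by 0.71 ± 0.08 (adjusted p = 6.55e-06). The groups did not overlap in either gene. Gaa (0.78 ± 0.13, adjusted p = 0.000434), Ctsd (0.56 ± 0.11, adjusted p = 0.0013) and Npc1 (0.52 ± 0.08, adjusted p = 0.000202) were higher as well. Lipa (-0.44 ± 0.11, adjusted p = 0.00753), Ctsc (-0.28 ± 0.09), Neu1, a sialidase (-0.28 ± 0.09), and Ctss (-0.26 ± 0.08) were lower.

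In all, 12 genes were higher and 4 lower in TDLN, against 14.9% and 12.1% of all 14023 genes. LN with PBS is the deep group here. Between the cisplatin groups, none of them deep, 13 genes were higher and 1 lower, against 7.83% and 6.97%, with Psap at 1.10 ± 0.08 (adjusted p = 7.65e-07), Ctsl at 0.83 ± 0.07 (adjusted p = 1.33e-06), Gaa at 0.76 ± 0.14 and Ctsb at 0.57 ± 0.08. Lipa, Ctsc and Ctss, lower with PBS, were at 0.19, 0.07 and 0.16 there and did not pass. Plasmacytoid dendritic cell markers moved with the node, 2274 to 2531 CPM in LN and 4247 to 4423 CPM in TDLN with PBS. So did B cell markers, 3939 to 4474 and 2419 to 2548 CPM, and T cell markers, 428 to 492 and 1049 to 1091 CPM. Macrophage markers summed to 3182 to 3331 and 2104 to 2152 CPM in the same groups. Their part was not tested.

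Cisplatin in rDC changed lysosome genes in LN. Psap fell from 4436, 4049 and 4416 CPM to 2823, 2708 and 2625 CPM, by 0.66 ± 0.08 (adjusted p = 5.18e-05). Gusb fell from 374, 379 and 370 CPM to 247, 221 and 239 CPM, by 0.67 ± 0.07 (adjusted p = 1.02e-05). Ctsd rose from 274, 232 and 265 CPM to 448, 397 and 404 CPM, by 0.69 ± 0.11 (adjusted p = 0.000356). Lipa (-0.50 ± 0.11, adjusted p = 0.00502), Npc2 (-0.32 ± 0.08) and Ctss (-0.32 ± 0.08) fell. The 1 riser and 6 fallers compare with 10.7% and 7.17% of all genes, and PBS is the deep group. Macrophage markers summed to 3182 to 3331 CPM with PBS and to 2560 to 2688 CPM with cisplatin. Dendritic cell markers summed to 3101 to 3156 and 2569 to 2734 CPM, and mast cell markers to 278 to 283 and 181 to 208 CPM. T cell markers summed to 428 to 492 and 557 to 578 CPM, and plasmacytoid dendritic cell markers to 2274 to 2531 and 2667 to 2728 CPM. B cell markers overlapped, at 3939 to 4474 and 4135 to 4463 CPM. The part of these markers was not tested.

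In rDC from TDLN, 0 of the 29 genes passed with edgeR and 0 with DESeq2, against 0.399% of all genes higher and 0.613% lower, and 3 had an unadjusted p under 0.05 with each tool. Leaving out cisplatin replicate 2, the library said above to depart from its group, gave 5 genes. The share of all genes in that fit is not given, so the count shows dependence on that library only. Ctsd was at 371, 371 and 395 CPM with PBS and at 418, 553 and 396 CPM with cisplatin (0.27 ± 0.11, adjusted p = 0.416). The node difference was higher in TDLN for 4 genes and lower for none, against 2.62% and 2.7%: Psap (0.71 ± 0.12, adjusted p = 0.00111), Gusb (0.64 ± 0.10, adjusted p = 0.000803), Lipa (0.63 ± 0.16, adjusted p = 0.0276) and Ctss (0.42).

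**Figure D4:**
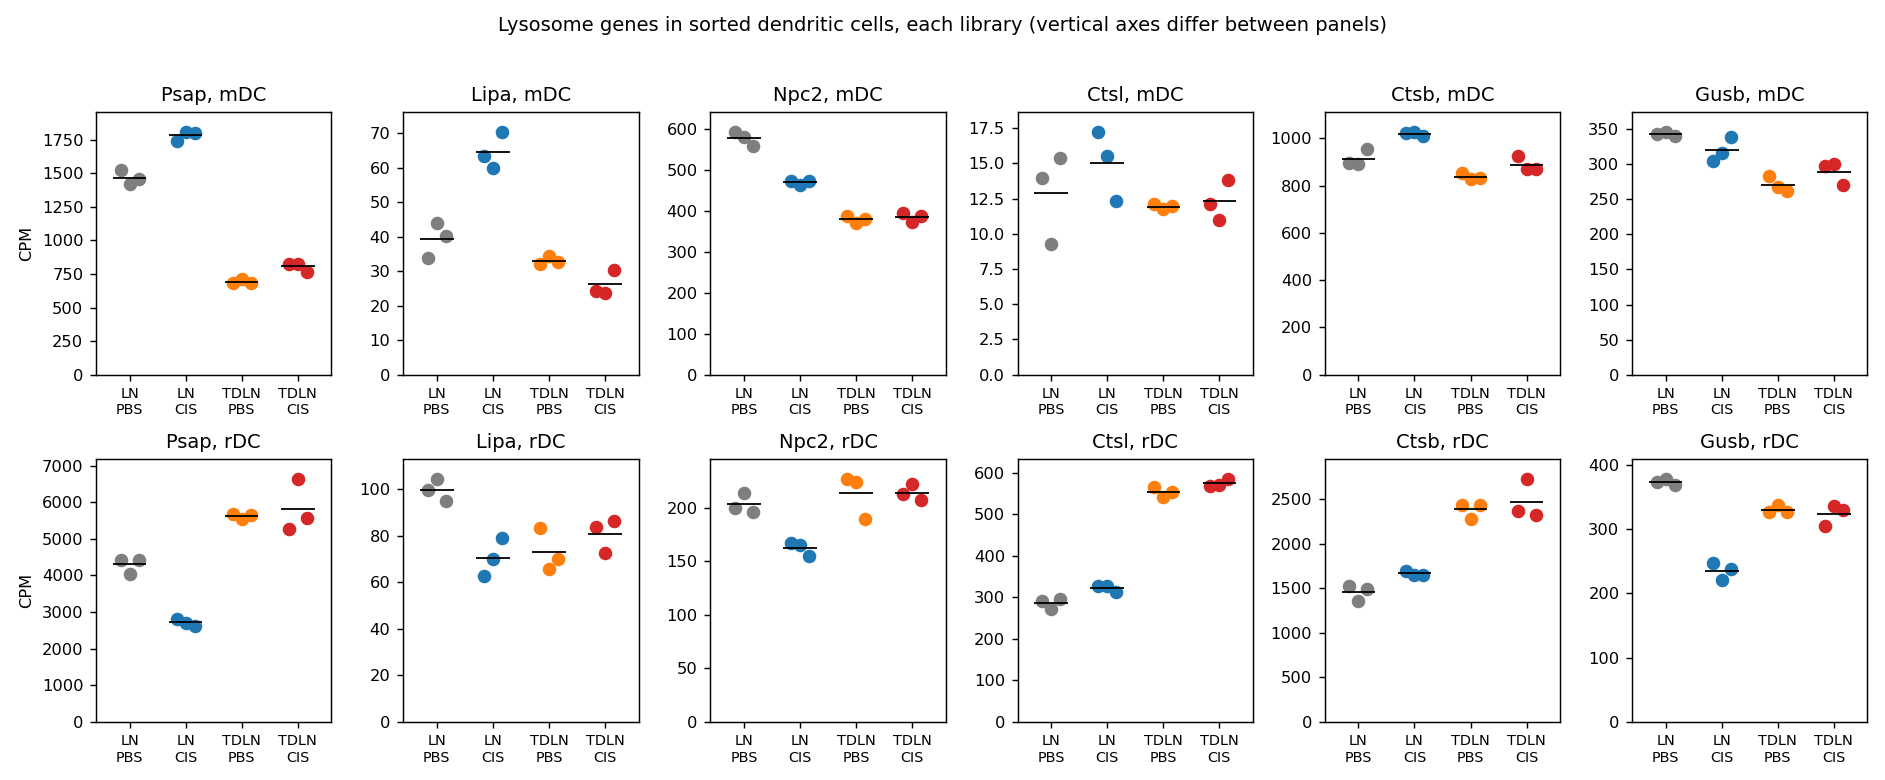
CPM of Psap, Lipa, Npc2, Ctsl, Ctsb and Gusb in each mDC (top) and rDC (bottom) library, with group means as lines; the vertical axes start at 0 and differ between panels. Psap lies at 679 to 713 CPM in mDC from TDLN with PBS, below the 1423 to 1524 CPM of LN, and Ctsl in rDC lies at 542 to 586 CPM in both TDLN groups, above all LN libraries.

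The largest differences among dendritic cells lay between the types. On a scale set over all 24 dendritic cell libraries, Cd63 was at 872, 952 and 1041 CPM (lowest, median and highest of 12) in mDC and at 19.9, 23.6 and 28.6 CPM in rDC, higher in mDC by 5.30 ± 0.04 (adjusted p = 5.07e-37, average over 4 conditions). Lamp1 was at 1285, 1384 and 1587 CPM in mDC and at 208, 240 and 264 CPM in rDC, higher by 2.55 ± 0.04 (adjusted p = 1.27e-30). Ctsl went the other way, at 10.1, 14.3 and 18.8 CPM in mDC and at 254, 384 and 524 CPM in rDC, lower in mDC by 4.68 ± 0.05 (adjusted p = 6.03e-34). The types did not overlap in any of these genes.

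Npc2 (1.49 ± 0.03), Lgmn (1.36 ± 0.04) and Gaa (1.14 ± 0.05) were higher in mDC as well. Npc1 (-1.84 ± 0.05), Psap (-1.71 ± 0.03), Ctsa (-1.40 ± 0.04), Ctsd (-1.06 ± 0.04) and Tfeb (-0.89 ± 0.05, adjusted p = 1.53e-15) were lower. Npc1 and Npc2, whose proteins act together in moving cholesterol out of the lysosome, thus differed in opposite directions. In all, 11 genes were higher and 16 lower, against 35.6% and 38.9% of all 14548 genes. The marker sums, each scaled within its cell type, are given above, and their part was not tested. Of the membrane genes, Lamp1, Cd63 and Mcoln1 were higher and Lamp2, Scarb2 and Npc1 lower. Of 17 proton pump genes, 11 were higher, such as Atp6v1b2 (1.54), and 4 lower, such as Tcirg1 (-1.55). Of 28 other hydrolases, 11 were higher and 17 lower, with Ppt1 at -3.26 and Gm2a at -2.53.

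**Figure D5:**
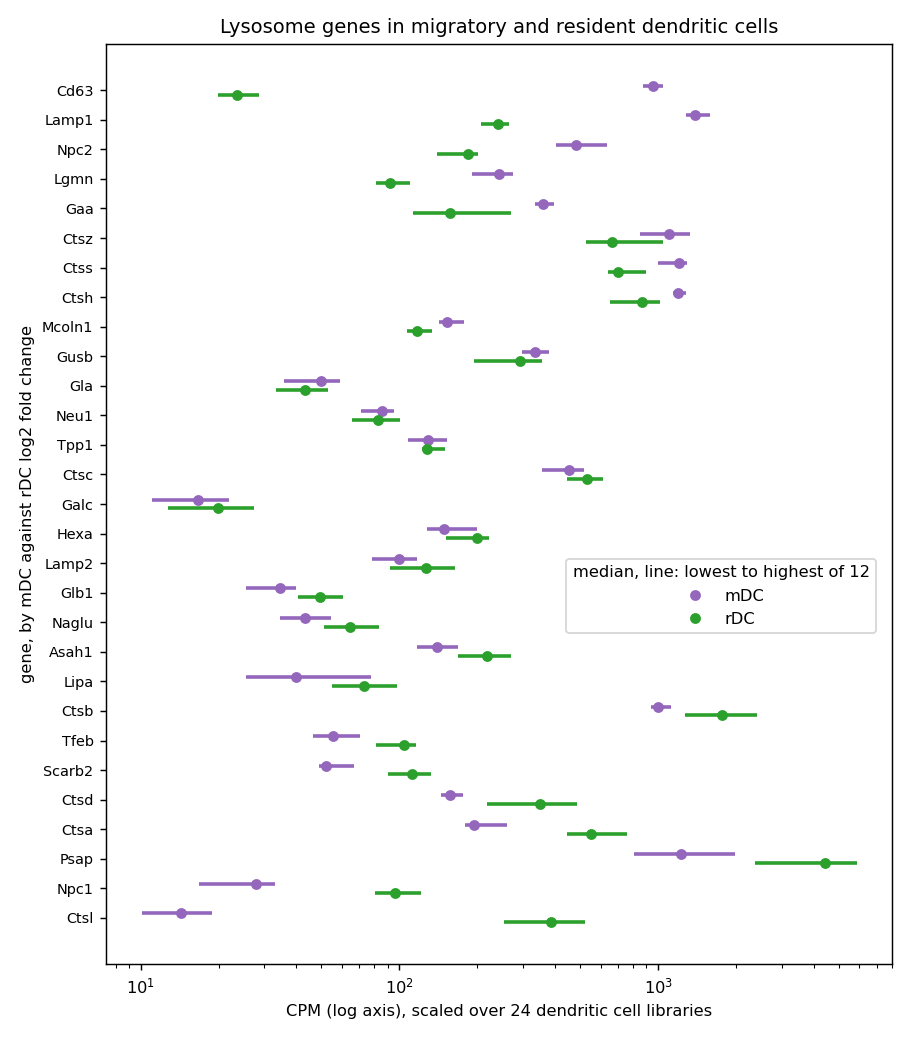
CPM on a log axis of the 29 genes in mDC and rDC, as the median (point) and the lowest to highest (line) of 12 libraries each, ordered by log2 fold change. Cd63 and Lamp1 at the top lie higher in mDC and Ctsl at the bottom lies lower, with medians of 14.3 and 384 CPM, and the lines of the genes in the middle overlap.

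Tfeb itself passed the test with all libraries in 3 comparisons, all of them in dendritic cells. Among the comparisons within macrophages its log2 fold change lay between -0.44 (TDLN against LN in SSM, adjusted p = 0.236) and 0.54 (node difference in MSM, adjusted p = 0.296), and in rDC between -0.10 (node difference, adjusted p = 0.799) and 0.00 (cisplatin in LN, adjusted p = 0.993). Lamp1 did not pass in rDC either, where it lay between -0.12 (TDLN against LN, adjusted p = 0.284) and 0.16 (cisplatin in TDLN, adjusted p = 0.569), nor in SSM, between -0.26 (TDLN against LN, adjusted p = 0.264) and 0.06 (node difference, adjusted p = 0.881). Nor did the node difference in MSM for Ctsd (0.28, adjusted p = 0.294) or Lamp1 (0.36, adjusted p = 0.275). The lowest and highest MSM libraries for Tfeb were at 59.7 and 127 CPM, and those of SSM at 59.8 and 121 CPM. The high values with PBS in LN were the crossed MSM library and the 2 uncrossed SSM libraries. Those 2 SSM libraries were at 121 and 118 CPM, and SSM from TDLN with PBS at 62.6, 80.7 and 77.3 CPM. SSM with cisplatin were at 85.1 to 89.9 CPM in LN and at 106 and 101 CPM in the uncrossed TDLN libraries. Without the crossed libraries Tfeb passed, at 0.24, with cisplatin in the libraries labelled MSM from LN, as given above. Other fits without them are not given for Tfeb in macrophages. Among other genes of the TFEB family and its lysosomal regulators, Rraga, a GTPase that recruits mTORC1 to the lysosome, rose with cisplatin in the libraries labelled MSM from LN (1.02, adjusted p = 0.00177), and in TDLN in MSM (1.70, adjusted p = 0.000118), in SSM (1.11, adjusted p = 0.00827) and in mDC (0.77, adjusted p = 0.00209). Of the 18 genes of that list tested in macrophages from TDLN, 4 rose and 1 fell in MSM, against 25.6% and 11.5% of all genes, and 5 rose and 0 fell in SSM, against 13% and 9.95%. With the crossed libraries left out 7 of 17 rose and 5 fell in MSM, against 41.6% and 27.4%, and 11 of 18 rose and 0 fell in SSM, against 34.6% and 36.5%. Rraga was then at 1.25 in the libraries labelled MSM from LN and at 1.54 in MSM from TDLN. Cst3, the secreted cathepsin inhibitor cystatin C, fell with cisplatin in TDLN in MSM (-1.18, adjusted p = 0.00123) and SSM (-0.96, adjusted p = 0.00248) and in LN in the libraries labelled MSM (-0.53, adjusted p = 0.0489) and in rDC (-0.83, adjusted p = 0.000213), and rose in SSM from LN (0.85, adjusted p = 0.00667). Without the crossed libraries Cst3 was at -1.49 in MSM and -0.78 in SSM from TDLN and at 0.93 in SSM from LN.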

How the data were processed

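The authors deposited whole-number gene counts, which are RSEM expected counts per the submitters' processing notes, made with STAR and RSEM 1.3.0 on GRCm38, for libraries of a stranded polyA kit. The deposited TPM values of dendritic cells, and the deposited score columns of macrophages (TPM with the decimals dropped), served to check columns: 24 of 24 columns in each table matched their own counts. Beyond that, only the TPM of Lipa in mDC is given above. Dendritic cell columns named WT were read as LN by elimination, since those named Tumor are TDLN.

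Counts were tested with edgeR 4.0.16 in R 4.3.3 (TMM scaling, filterByExpr, quasi-likelihood, Benjamini-Hochberg adjusted p under 0.05 over all genes). One model held the 12 libraries of a cell type, and 1 model the 24 libraries of a pair of types. Standard errors are the fold change over the root of F. Alternatives were DESeq2 1.42.0, RLE factors, no filter, a replicate block, leaving out each library, leaving out the 4 crossed libraries, and thinning the deep dendritic cell libraries to 3 M counts. TDLN against LN with cisplatin in dendritic cells was added after seeing the data. Named in a comparison were up to 5 genes (3 for node differences) past the threshold in each direction with the largest change. They had to average at least 4 CPM. Tfeb, Lamp1 and Ctsd were named throughout, and of each other list up to 2 genes a direction by adjusted p. Genes named beyond this rule were chosen after their values were seen. The genes and lists were chosen with earlier results of these data known. The tests were tried on simulated data. Depth limits precision most in the 18 shallow dendritic cell libraries.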

Additional observations from a re-analysis of the deposited data

Results flagged for a closer look

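The cisplatin effect differed between TDLN and LN by the interaction term in 16 pairs of a named gene and a cell type. Lipa was named in SSM, mDC and rDC. The shares of all genes with such a difference are given above for each cell type. Each value is the log2 effect in TDLN minus that in LN, from edgeR's quasi-likelihood test. In MSM it was 1.33 for Naglu, 2.29 for Asah1, 1.43 for Cd63, -0.94 for Npc1 and -0.92 for Mcoln1, where the LN cisplatin libraries hold few macrophage markers. In SSM it was -1.25 for Ctsa, -1.27 for Ctsd and -1.24 for Lipa. In mDC it was 0.34 for Ctsz, -0.33 for Hexa and -1.06 for Lipa, and 0.21 for Ctsh and 0.32 for Npc2, which both changed sign with no filter on low counts. In rDC it was 0.64 for Gusb, 0.63 for Lipa and 0.71 for Psap.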

How the results depend on the processing

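Counts of the 29 genes called moved most without the crossed libraries: to 27 for cisplatin in MSM from LN, 25 in MSM from TDLN, 27 in SSM from LN and 22 in SSM from TDLN; to 23 for TDLN against LN in MSM and 23 in SSM; to 21 and 22 for the node difference in MSM and SSM; and to 25, 21 and 27 for MSM against SSM in LN with PBS, TDLN with PBS and TDLN with cisplatin. With no filter they were 2 for TDLN against LN in MSM, 16, 18 and 11 for cisplatin in TDLN, TDLN against LN and the node difference in mDC, and 16 and 9 for cisplatin in LN and the node difference in rDC. DESeq2 gave 6 for TDLN against LN in mDC, and 11 and 9 for cisplatin in LN and the node difference in rDC. Shares of all genes without the crossed libraries are given with each comparison above. For the other settings, among them the replicate block and single libraries left out, shares of all genes are not given. Those counts show dependence on the processing only, not a result about the 29 genes. The cause was not tested.

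Same-numbered libraries mostly did not deviate together: of 72 pairs, 14 correlated over 0.1, between -0.73 and 0.72. The 1 exception among 24 pairs of groups is SSM from LN with cisplatin and from TDLN with PBS, where all 3 pairs did (0.40, 0.19 and 0.12). With the replicate block the counts were 3 for cisplatin in SSM from LN, 1 for TDLN against LN in SSM and 2 for the node difference in rDC.

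Leaving out 1 library at a time gave 9 to 15 for cisplatin in MSM from LN (9 without cisplatin replicate 2 or 3), 7 to 18 in MSM from TDLN (18 without cisplatin replicate 1), 3 to 10 for TDLN against LN in MSM (10 without LN PBS replicate 2), 3 to 8 for cisplatin in SSM from LN (3 without any cisplatin replicate or PBS replicate 3, 4 without PBS replicate 1), 4 to 12 in SSM from TDLN (12 without cisplatin replicate 3), 1 to 9 for TDLN against LN in SSM (9 without LN PBS replicate 2, 1 without any other) and 5 to 11 for the node difference in SSM (8 without LN PBS replicate 2, 11 without TDLN cisplatin replicate 3). In mDC it gave 5 to 7 for cisplatin in TDLN (5 without cisplatin replicate 1 or PBS replicate 2 or 3) and 6 to 12 for TDLN against LN (6 without LN replicate 1 or TDLN replicate 2). In rDC it gave 0 to 5 for cisplatin in TDLN (5 without cisplatin replicate 2), 9 to 13 for TDLN against LN (9 without LN replicate 2, 10 without TDLN replicate 3) and 2 to 9 for the node difference (9 without TDLN cisplatin replicate 2). MSM against SSM in TDLN with PBS gave 5 to 6 (5 without MSM replicate 1 or 3 or SSM replicate 1).

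Directions turned for Tfeb with cisplatin in MSM from LN (0.24 without the crossed libraries), and, with no filter, for Gaa (-0.061), Psap (-0.053) and Lamp1 (-0.23) with cisplatin in mDC from TDLN, Gusb (0.012), Lamp1 (0.16) and Tfeb (0.063) for TDLN against LN in mDC, and Ctsh (-0.12) and Npc2 (-0.00152) for the node difference in mDC. TDLN against LN with cisplatin, added after seeing the data, called 10 genes in mDC and 14 in rDC, where Ctsc (0.072), Ctss (0.16) and Lipa (0.19) turned.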
